A study of Mus musculus with 24 samples.

Results

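A skipped exon is an exon that some transcripts of a gene contain and others leave out. The events described here are the skipped exons whose middle exon is longer than 60 bases and has a length that does not divide by 3, so that leaving it out shifts the reading frame wherever it lies within a coding sequence. They were taken from the event coordinates in the splicing tables of the series (mm10), as the end of the middle exon less its start plus 1. The rule found 2233 of 4636 skipped exon events and of 8935 splicing events in all. The other skipped exons were 1869 events above 60 bases whose length divides by 3 (frame-keeping) and 534 events of up to 60 bases (short).

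The study compared 5 wild-type (WT) and 5 Celf6 knockout (KO) mouse brains at postnatal day 9, from the region just behind the thalamus without the cortex. The product of Celf6 binds RNA and belongs to the CELF proteins, which are known as regulators of splicing and of RNA stability. Each brain gave total RNA (input) and the RNA on translating ribosomes of serotonin cells, purified through a serotonin-cell allele that tags ribosomes (translating ribosome affinity purification, TRAP). The 4 groups were thus KO TRAP, WT TRAP, KO input and WT input. The strain, the Celf6 allele, the sex of the animals and the driver of the ribosome tag are not given in the sources used here.

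An exon whose length is not a multiple of 3 changes the reading frame of everything downstream when it is left out or added, and the new frame usually meets a stop codon early. Transcripts with such a stop codon are commonly degraded by nonsense-mediated decay, in which Upf1 and the Smg proteins act on terminating ribosomes. Many genes of RNA-binding and splicing proteins are known to limit their own levels in this way. The files do not say whether an exon lies in the coding sequence or in an untranslated region, and some hosts, such as Gas5 and Meg3, are noncoding RNAs, so the frame shift is a property of length alone. Exon sequences are not printed, since no genome was used here.

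The 19 libraries used held 3390423 to 6861963 gene counts each. Libraries WT input 2 and WT input 3 differed by less than the sampling noise seen between other libraries (chi-square per gene 1.365, against 1.39 to 2.67 for 4 repeat runs of a library and 26.2 to 95.4 for 35 other pairs within a group). They were counted as 1 sample (WT input 2/3), which left 5 samples in each group except WT input with 3. The library WT input 4, labelled an outlier, was not used. Celf6 itself lay at 21.4 to 114 CPM (counts scaled to library size, median 36.6) in KO TRAP and 84.8 to 186 (median 149) in WT TRAP. In input it lay at 4.78 to 22.2 (median 17.1) in KO and 15.5 to 103 (median 33.2) in WT. The library labelled KO TRAP 1 (114 CPM) was within the range of WT TRAP, and WT input 2/3 (15.5 CPM) within that of KO input. Counts over a whole gene do not check the deleted part. Of 10 serotonergic markers, 9 were higher in TRAP (summed level 4151 to 10434.5 CPM in TRAP and 171 to 299.9 CPM in input). Markers of the oligodendrocyte lineage were lower in TRAP for 6 of 8 (1080 to 5542 CPM against 4985 to 12806 CPM), astrocyte markers for 3 of 8 (199.8 to 995 CPM against 799 to 1493 CPM), GABAergic or glycinergic markers for 2 of 4 and glutamatergic markers for 1 of 3. No microglial or endothelial marker passed the test, and 6 of 8 and 4 of 6 of them were at 0 in at least 1 TRAP library. None of the dopaminergic or noradrenergic markers was higher in TRAP and 1 of 4 was lower. In bulk RNA, fewer cells of a type and less RNA per cell cannot be told apart, and the part of cell composition in the results below was not tested.

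The 2233 events held 2106 distinct middle exons, since 237 events shared their middle exon with another event and differed only in the flanking exons. They lay in 1556 named genes, 173 events had no gene name and 351 genes held 2 or more events. Oprm1, the mu opioid receptor gene, held the most with 13. The middle exons had a median length of 131 bases (quartiles 97 and 181, range 61 to 9955), close to that of the frame-keeping exons (median 129). Division by 3 left a remainder of 1 in 1136 events and of 2 in 1097, so neither frame was favoured in number. The intron before the exon had a median of 1993 bases and the intron after it a median of 1841 bases, against 2087 and 2110 for frame-keeping exons. The gene was listed as bound by CELF6 in crosslinking and immunoprecipitation (CLIP) for 22.8% of the events, against 24.0% of frame-keeping exons, 29.0% of short exons and 26.3% of all splicing events. At the length limit there were 13 skipped exons of 59 bases, 25 of 60, 17 of 61 and 17 of 62. Their median PSI was 0.909, 0.925, 0.929 and 0.137 in that order, so the exons of 61 and of 62 bases, both inside the limit, lay further apart than those on either side of it.

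Inclusion was given as PSI, the fraction of a gene's transcripts in an event that contain the middle exon, estimated from the reads. A PSI of 1 is full inclusion and 0 is full skipping. Every event had a value in at least 1 library: 1178 in both kinds of RNA, 709 in TRAP alone and 346 in input alone. Between 453 and 847 events had a value in any 1 library, and 110 had a value in every library used. A value is present only where the estimate was narrow, so an absent value is not a PSI of 0.

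Where a value was given, nearly all of these exons were either almost always left out or almost always kept. The limit on width is met with fewer reads near a PSI of 0 or 1. Exons at intermediate levels can therefore lack a value more easily, and their share among all 2233 events is not known. In each library 45.3% to 54.5% of the events with a value had a PSI below 0.1 and 40.0% to 45.7% had a PSI above 0.9. The share below 0.1 was 48.0% ± 1.67 (SD, n = 5) in KO TRAP, 48.2% ± 1.63 (SD, n = 5) in WT TRAP, 49.5% ± 2.09 (SD, n = 5) in KO input and 49.5% ± 4.37 (SD, n = 3) in WT input. The share above 0.9 was 43.7% ± 1.17, 44.4% ± 0.793, 42.9% ± 2.18 and 42.1% ± 1.06 in the same order. KO and WT overlapped in both shares in TRAP and in input, and so did TRAP and input in KO. In WT the share above 0.9 was 43.3% to 45.3% in TRAP and 40.9% to 42.8% in input, without overlap and without a test, while the shares below 0.1 overlapped. The median PSI was 0.142 ± 0.0411 in KO TRAP, 0.135 ± 0.0294 in WT TRAP, 0.118 ± 0.0532 in KO input and 0.129 ± 0.0538 in WT input (SD over libraries). Over the 110 events seen in every library it was 0.0448, 0.0454, 0.0403 and 0.0477, also without a separation of the groups.

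**Figure D1:**
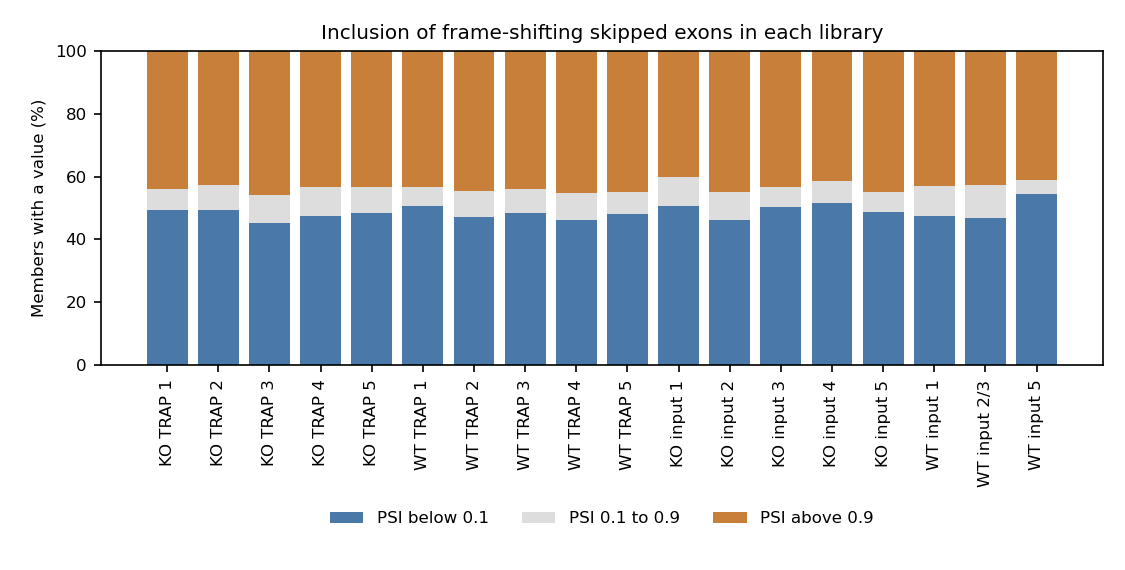
Share (%) of frame-shifting skipped exons with a PSI below 0.1, from 0.1 to 0.9 and above 0.9 among those with a value, 1 bar for each library. The share below 0.1 stays between 45.3% and 54.5% in all 18 samples, with no step between KO and WT or between TRAP and input.

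Whether an exon was kept went with whether it was part of the gene models that the authors counted reads on. Among 374 events measured in 2 or more libraries of every group, 181 had a mean PSI below 0.1 in all 4 groups, 140 had a mean above 0.9 in all 4, 19 lay between 0.1 and 0.9 in all 4 and 34 fell in different classes in different groups. Of the 140 kept exons, 126 (90%) were exons of the gene models with the same start and end, and 3 (2.14%) touched no exon of them. Of the 181 skipped exons, 27 (14.9%) equalled an exon of the gene models and 146 (80.7%) touched none. Read the other way, the median PSI was 0.956 (quartiles 0.891 and 0.967) for 178 exons in the gene models, 0.216 for 34 exons that overlap one, and 0.0327 (quartiles 0.0235 and 0.0436) for 162 exons outside them. Frame-keeping exons showed the same split with 83.2% of 113 kept exons in the gene models and 71.4% of 147 skipped exons outside them. Over all 2233 events, 55.1% equalled an exon of the gene models and 34.3% touched none, against 62.7% and 27.6% of frame-keeping exons.

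Kept and skipped exons were alike in length (medians 135.5 and 136 bases) and their hosts alike in level (median 144 and 133 CPM). Kept exons had longer introns around them, with a median of 3141 bases before and 2394.5 bases after, against 1513 and 1480 bases for skipped exons. The 19 intermediate exons were longer (median 205 bases), sat between short introns (677 and 405 bases) and came from genes with a median of 309.6 CPM. The share left out was alike up to 500 bases: a mean PSI below 0.1 was found for 50% of the events of up to 100 bases, 55.8% of longer ones up to 200 bases and 53% of those beyond, up to 500 bases. Above 500 bases 6 of 27 (22.2%) did and 14 of 27 (51.9%) were above 0.9. These are descriptions of the events that could be measured, without a test, and an intermediate PSI needs more reads to be given.

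For most of these exons that could be tested, mean PSI was close in the RNA on ribosomes of serotonin cells and in total RNA. Across the 374 events, mean PSI in TRAP and in input had r = 0.998 over events, which are not independent replicates, and 352 differed by less than 0.05. In all 4 groups 181 of them lay below 0.1 and 140 above 0.9. Both figures therefore mostly reflect these 2 ends and say little about single exons. The test was limma's moderated test on the log2 odds of inclusion, log2(PSI/(1−PSI)), with p-values adjusted over all 1787 splicing events tested. No frame-shifting skipped exon passed an adjusted p of 0.05 (0 of 374), where 0.112% of all events did (2 of 1787). At an unadjusted p below 0.05 there were 44 (11.8%), against 9.4% of all events. By direction, 20 of 374 were higher and 24 of 374 lower in TRAP, against 63 (3.53%) and 105 (5.88%) of 1787 events. The median difference was 0.02 on the log2 odds scale, against −0.03 over all events, and the median size of the difference in PSI was 0.00902, against 0.00866. The 95% interval of the difference lay within 1 unit of log2 odds for 125 of 374 exons and within 2 units for 337, and the part of read depth in its width was not tested.

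**Figure D2:**
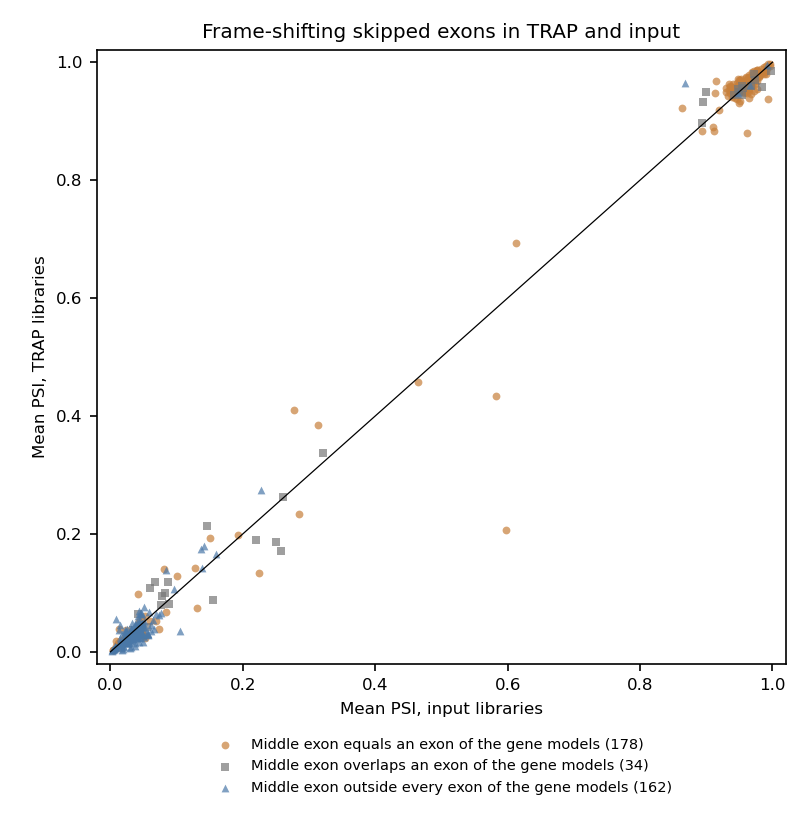
Mean PSI over input libraries (x) and over TRAP libraries (y) for the 374 frame-shifting skipped exons tested, by the place of the middle exon in the gene models, with the line of equal levels. Points gather at both ends of the line: exons of the gene models mostly near 1 (median 0.956), exons outside them near 0 (median 0.0327).

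None of the exons named next passed the test, and their values describe those with the smallest p that were higher in TRAP. In 4833439L19Rik (chr13:54564515-54564621, 107 bases, an exon of the gene models) PSI was 0.979, 0.959 and 0.955 in KO TRAP and 0.967, 0.984, 0.981, 0.945 and 0.970 in WT TRAP. In input it was 0.919 and 0.908 in KO and 0.901, 0.921 and 0.921 in WT. All 8 TRAP values were above all 5 input values, and the difference was 1.57 ± 0.33 (SE) on the log2 odds scale (limma, adjusted p = 0.145). This gene and Mbp, named after its values were seen, were the only 2 of 374 whose TRAP and input values did not overlap, against 0.56% of all events.

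In the 205-base exon of an event without a gene name in the span of Polr2m (chr9:71481342-71481546), PSI was 0.128, 0.331, 0.538, 0.293 and 0.386 in KO TRAP and 0.399, 0.588, 0.508, 0.485 and 0.451 in WT TRAP. In input it was 0.294, 0.276, 0.371, 0.324 and 0.257 in KO and 0.191, 0.273 and 0.229 in WT. WT TRAP was above every input library while KO TRAP 1 was the lowest of all 18 samples. The mean difference in PSI was 0.143, the largest rise among the 374, with 0.135 in run 1 and 0.134 in run 2 (0.89 ± 0.31 on the log2 odds scale, limma adjusted p = 0.342). Without KO TRAP 1 the adjusted p was 0.0456.

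Pfdn5, a subunit of the prefoldin complex that hands actin and tubulin to their folding chaperone, had a 103-base exon with a mean PSI of 0.959 in TRAP and 0.936 in input (0.96 ± 0.29, limma adjusted p = 0.224). In KO libraries alone the difference was −0.39, the opposite direction. Atat1, which acetylates alpha-tubulin, had an 83-base exon outside the gene models with a PSI of 0.0456 ± 0.0381 (SD, n = 10) in TRAP and 0.0146 ± 0.00585 (SD, n = 8) in input. Among the TRAP libraries WT TRAP 2, 4 and 5 were high (0.106, 0.104 and 0.0897) and the others were at most 0.0304. Atp6v1f, a subunit of the proton pump of vesicles and lysosomes, was similar, with TRAP values from 0.00521 to 0.185 and input values of at most 0.0121. Rpl36a, a ribosomal protein gene, had mean values of 0.976 in input and 0.986 in TRAP with overlap, and similar gene copies make its reads uncertain.

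Among the exons with the smallest p that were lower in TRAP were the long exons of Gnas and Mtap1a. Gnas, which encodes the stimulatory G protein alpha subunit, had a 2327-base middle exon with a mean PSI of 0.0885 ± 0.0396 (SD, n = 9) in TRAP and 0.156 ± 0.0406 (SD, n = 8) in input (limma adjusted p = 0.205). The 8104-base exon of Mtap1a, a microtubule-associated protein, was kept in every input library (0.987 to 0.997). In TRAP it ranged from 0.661 to 0.99 (median 0.974, limma adjusted p = 0.154), with a single library, WT TRAP 2, below 0.9. Without that library the limma adjusted p was 0.0601.

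Atp5d, the delta subunit of the mitochondrial ATP synthase, had an 89-base exon at 0.899 and 0.875 in KO TRAP and at 0.939 to 0.972 in WT TRAP. Its input values of 0.942 to 0.982 overlapped those of WT TRAP, of which only WT TRAP 5 (0.939) was below all of them. KO TRAP 2 and 3, the only KO TRAP libraries with a value, lay below every WT TRAP and input value. The overlapping exons of Ube2v1, of 119 and 122 bases with a common end, had means of 0.0375 and 0.0296 in input and 0.0095 and 0.0072 in TRAP, and WT input 1 (0.131 and 0.102) was above every other sample. In Mbp, a myelin gene whose level was lower in TRAP (log2 fold change −1.97, edgeR adjusted p = 1.06e-06), the 431-base exon was at 0.964 to 0.995 in TRAP and 0.996 to 0.998 in input (limma adjusted p = 0.428). All 8 of its input values were above 0.99 and entered that fit as 0.99. With wider bounds on PSI, from 0.001 up, it passed the threshold.

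**Figure D3:**
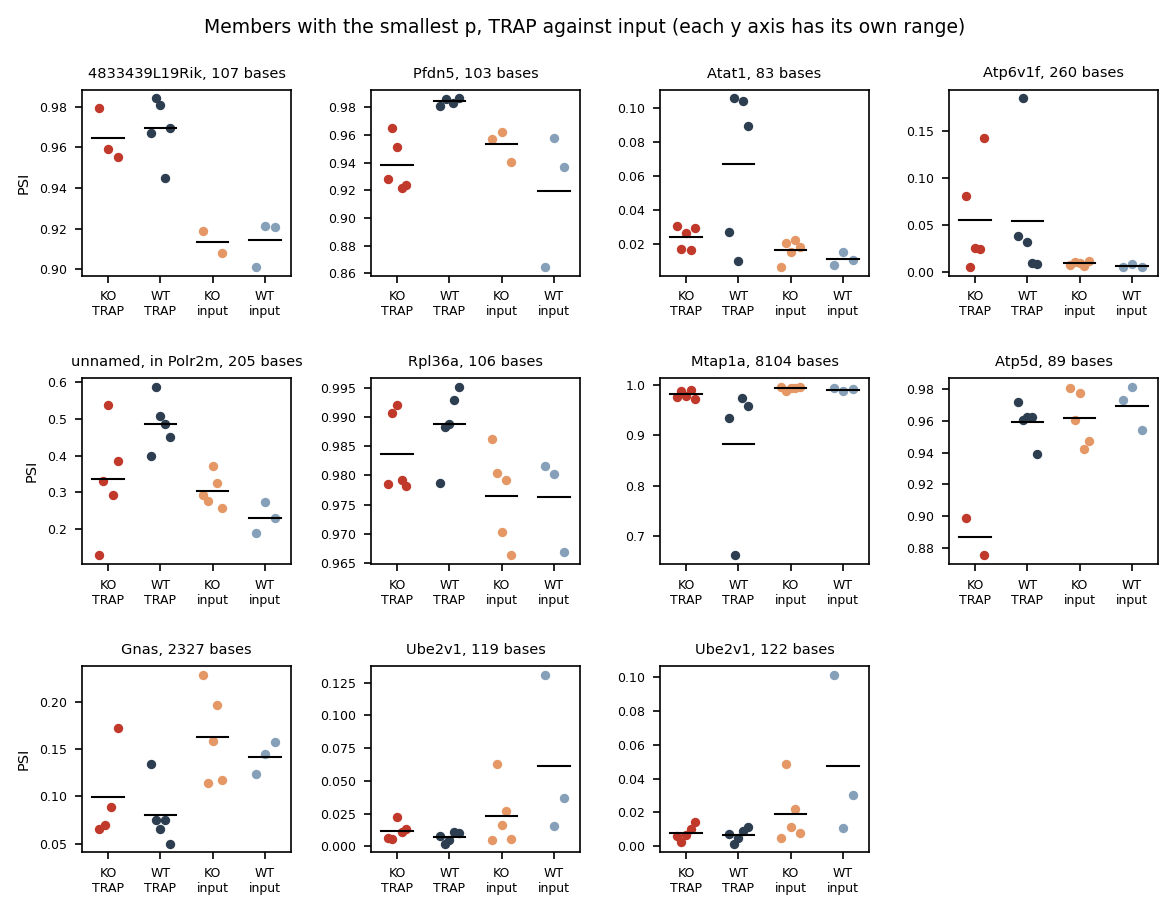
PSI (y, each panel with its own range) in every library of the 4 groups for 11 of the exons with the smallest p in TRAP against input, 6 higher and then 5 lower in TRAP; points are libraries and lines are group means. Only 4833439L19Rik separates TRAP (0.945 to 0.984) from input (0.901 to 0.921), and in Atp6v1f, Mtap1a and Ube2v1 1 or 2 libraries lie far from the rest.

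No frame-shifting exon passed the threshold between KO and WT in serotonin-cell RNA. KO and WT were compared in TRAP for 403 events, each measured in 3 or more KO and 3 or more WT libraries. None passed an adjusted p of 0.05, where 0.0537% of all events did (1 of 1861), and the lowest adjusted p was 0.0678. At an unadjusted p below 0.05 there were 25 (6.2%), against 6.02% of all events. By direction, 11 of 403 were higher and 14 of 403 lower in KO, against 46 (2.47%) and 66 (3.55%) of 1861 events. In the authors' deposited table of TRAP, 0 of 403 had a false discovery rate below 0.05, against 0.0537% of the 1861 events with a p-value there. A p-value below 0.05 stood in the authors' deposited table for 18 of the exons (4.47%), against 5.32% of all events. KO and WT did not overlap in 16 exons, 5 higher and 11 lower in KO, against 3.87% of all events (72 of 1861). The median difference in PSI had a size of 0.00889, against 0.00875 over all events, and 381 exons differed by less than 0.05. The 95% interval lay within 1 unit of log2 odds for 80 exons and within 2 units for 320.

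Pfdn5 had the smallest p. Its 103-base exon (chr15:102326433-102326535, an exon of the gene models in a gene listed as bound by CELF6) was at 0.928, 0.965, 0.951, 0.922 and 0.924 in KO TRAP. In WT TRAP it was at 0.981, 0.986, 0.983 and 0.987 in replicates 2 to 5, and replicate 1 had no value. Every KO library was below every WT library, with a difference of −0.0462 in mean PSI (−2.0 ± 0.29 on the log2 odds scale, limma p = 0.000109, adjusted p = 0.0678; exact permutation test over 126 splits, 2-sided p = 0.0159). The difference was −0.0355 in run 1 and −0.0619 in run 2. It passed the threshold without KO TRAP 2 (limma adjusted p = 0.0269), the KO library nearest to WT (0.965), and without no other single library. The adjusted p was 0.139 without KO TRAP 1, the library with the high Celf6 level. In input the KO mean was 0.953 (n = 3) and the WT mean 0.92 (n = 3), and the 2 ranges overlapped.

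Atp5j encodes coupling factor 6 of the mitochondrial ATP synthase. Its 175-base exon (chr16:84834809-84834983, also an exon of the gene models in a CELF6-bound gene) was included in close to equal parts. PSI was 0.399, 0.391, 0.402 and 0.347 in KO TRAP 1 to 4 and 0.540, 0.541, 0.534, 0.495 and 0.475 in WT TRAP. Again every KO library lay below every WT library (difference −0.132 in PSI, −0.78 ± 0.14, limma adjusted p = 0.164). By run the difference in PSI was −0.141 in run 1 and −0.138 in run 2, where KO TRAP 4 was the only KO library with a value. In input KO ranged from 0.406 to 0.518 and the WT samples were at 0.503 and 0.442, so the groups overlapped. Untransformed PSI gave an adjusted p of 0.0494 in TRAP.

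Ywhaz, a 14-3-3 adaptor protein, had the largest difference in mean PSI. Its 197-base exon was at 0.379, 0.408 and 0.480 in KO TRAP 1, 3 and 4 and at 0.611, 0.691 and 0.739 in WT TRAP 2, 3 and 5 (−0.258; limma adjusted p = 0.389). With 3 libraries a group an exact permutation test cannot go below a p of 0.1, which is what it gave. Ier3ip1, a protein of the endoplasmic reticulum, was at 0.0162 to 0.034 in KO TRAP and 0.0342 to 0.097 in WT TRAP, without overlap by a narrow margin (limma adjusted p = 0.589).

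The 5 exons with the smallest p that were higher in KO were all near full inclusion. Ppfia1, a liprin scaffold protein of synapses and adhesion sites, had a 71-base exon at 0.993, 0.984, 0.976 and 0.982 in KO and at 0.945 to 0.968 in WT TRAP (1.43 ± 0.27, limma adjusted p = 0.178). Cdk14, a cyclin-dependent kinase, had a 95-base exon at 0.975, 0.965 and 0.962 in KO and at 0.928 to 0.947 in WT. Neither pair of ranges overlapped. Dlgap4, a scaffold of the postsynaptic density, Dhx57, a helicase, and Rnf14, a ubiquitin ligase, had mean differences of 0.0208, 0.0265 and 0.0138 with ranges that overlapped (limma adjusted p = 0.589 for each).

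**Figure D4:**
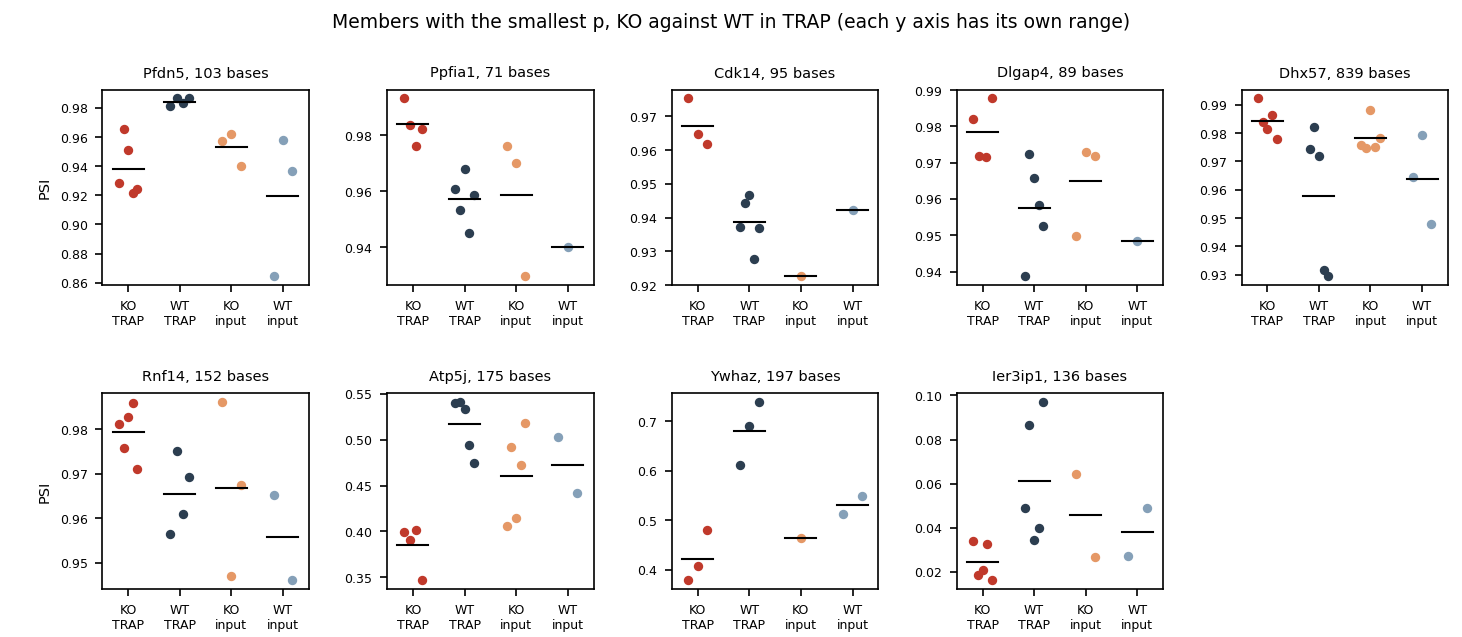
PSI (y, each panel with its own range) in every library of the 4 groups for 9 of the exons with the smallest p in KO against WT in TRAP; points are libraries and lines are group means. In Pfdn5, Atp5j and Ywhaz every KO TRAP library lies below every WT TRAP library, while the input libraries of the 2 genotypes overlap in Pfdn5 and Atp5j.

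In total RNA 232 exons could be compared between KO and WT, and 0 passed (limma; 0% of all 1154 events). At an unadjusted p below 0.05 there were 8 (3.45%), against 3.29% of all events, and the lowest adjusted p was 0.973. In the authors' deposited table of input, 0 of 310 had a false discovery rate below 0.05, as had 0% of the 1504 events with a p-value there. A p-value below 0.05 stood in the authors' deposited table for 9 of the exons (2.9%), against 4.79% of all events. KO and WT did not overlap in 5 exons, against 3.47% of all events. Among them St13, Dync1i2 and Ipo11 were higher in KO and Uqcrc2 was lower. Ipo11 was named after its values were seen. With 3 WT samples the 95% interval lay within 1 unit of log2 odds for 58 exons.

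Dync1i2, an intermediate chain of the dynein motor, had a 94-base exon at 0.0706, 0.106, 0.0595, 0.0241 and 0.0704 in KO input and at 0.0225, 0.0135 and 0.0193 in WT input (1.80 ± 0.49, limma adjusted p = 0.973). In TRAP KO ranged from 0.00755 to 0.188 and WT from 0.0103 to 0.0396, with overlap. Uqcrc2, a core subunit of respiratory complex III, had a 166-base exon at 0.0124 to 0.0313 in KO input and at 0.0419, 0.0704 and 0.0535 in WT input. In TRAP its genotypes overlapped. St13, a partner of Hsp70, and Stau2, which carries RNA along dendrites, had differences of 0.0155 and 0.0299 in mean PSI. The unnamed event in the span of Nmnat2, Ipo9, an importin, and 2410018M08Rik had differences of −0.00916, −0.0138 and −0.00802. None of these passed (limma adjusted p = 0.973 for each).

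The genotype difference in TRAP was set against that in input for 374 exons, and 0 passed (limma; 0% of all 1787 events, lowest adjusted p = 0.710). At an unadjusted p below 0.05 there were 12 (3.21%), against 4.48% of all events. The interval, taken as in the comparisons above, lay within 1 unit of log2 odds for 20 of 374 exons and within 2 units for 158. Pfdn5 again had the smallest p (−2.69 ± 0.57, limma adjusted p = 0.71). It was followed by 2410018M08Rik, whose 91-base exon never exceeded a PSI of 0.0333, and by Oaz2, an ornithine decarboxylase antizyme. In Oaz2 the 86-base exon was at 0.109, 0.180, 0.159 and 0.164 in KO TRAP and 0.402, 0.178 and 0.195 in WT TRAP, but at 0.283, 0.236 and 0.248 in KO input and 0.152 and 0.0461 in WT input. KO was the lower genotype in TRAP on average and the higher in input, with 2 WT input samples behind that contrast. The difference itself was not past the threshold for any exon, so no exon is shown to respond in serotonin-cell RNA differently from total RNA.

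Among the 374 exons, the 19 at intermediate levels in all 4 groups were picked out after their values were seen. They lay in Atp5j, Brd2 (2 exons), Dos, Fhl1, Gas5, Gm6483, Iqsec3, Ncdn, Nnat (1 exon in 2 events), Nop56, Rell2, Shank3, a pair of copies named 6820431F20Rik and 2610005L07Rik, and 4 events without a gene name in the spans of Crk, Polr2m, Capzb and Maz. Gas5, a noncoding host of small nucleolar RNAs, was the steadiest, with a 533-base exon at 0.209 to 0.300 over 12 samples. Rell2 (316 bases) ran from 0.196 to 0.492 over all 18 samples, with group means of 0.346, 0.328, 0.327 and 0.31 in KO TRAP, WT TRAP, KO input and WT input. Brd2, a bromodomain reader of acetylated histones, had a 92-base exon with group means of 0.138, 0.247, 0.166 and 0.126, and single libraries from 0.00913 to 0.418. Its 301-base exon was at 0.0611 to 0.305. Nnat, an imprinted brain gene, had its 76-base exon at 0.103 to 0.319 over the 18 samples in one of the 2 events that hold it and at 0.0488 to 0.472 in the other, and its 88-base exon never exceeded 0.0128. Nop56, a core protein of small nucleolar ribonucleoproteins, had a 119-base exon at 0.216 ± 0.0252 (SD, n = 3) in KO TRAP and 0.159 ± 0.0408 (SD, n = 5) in WT TRAP. The 218-base exons of Gm6483 and of 6820431F20Rik with 2610005L07Rik lie in similar gene copies, so their reads may be split between them.

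Ncdn, a neuronal protein, had a 70-base exon at 0.0515 to 0.245 in TRAP and 0.174 to 0.335 in input, with overlap (limma adjusted p = 0.551). Fhl1, a LIM-domain protein, differed most between TRAP and input among the 374 exons (−0.369 in mean PSI, limma adjusted p = 0.517). Its 200-base exon was at 0.0725, 0.135, 0.335, 0.155 and 0.154 in KO TRAP and 0.441, 0.227 and 0.135 in WT TRAP. Input split into 0.158, 0.930 and 0.813 in KO and 0.976 and 0.109 in WT, so libraries of 1 group were near both ends. Shank3, a postsynaptic scaffold, had a 2257-base exon with values from 0.108 to 0.983 and no order by group.

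**Figure D5:**
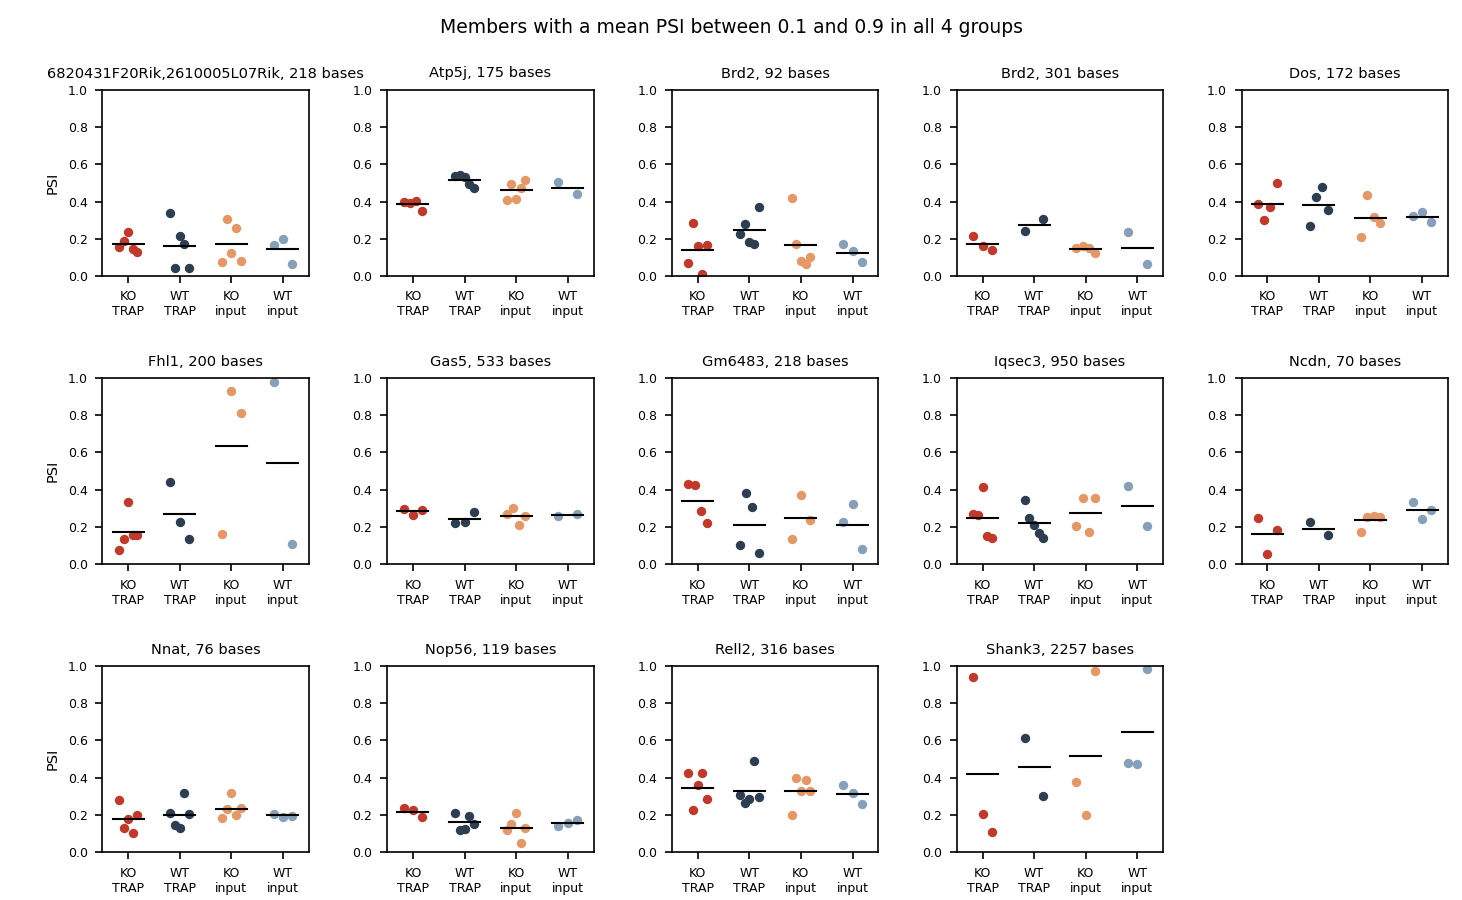
PSI (y, from 0 to 1) in every library of the 4 groups for the 14 exons with a gene name, among the 374 tested, whose mean PSI was between 0.1 and 0.9 in all 4 groups; points are libraries and lines are group means. Gas5 stays within 0.209 to 0.300, whereas Fhl1 input and Shank3 libraries spread from about 0.1 to above 0.9.

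Such jumps were rare among the events with a value, most of which lay near a PSI of 0 or 1. Exons at intermediate levels lack a value more easily, so the share of jumps among all frame-shifting exons is not known. Among events with at least 3 values in a group, the median SD of PSI within the group was 0.0153 in KO TRAP (541 events), 0.0140 in WT TRAP (492), 0.0150 in KO input and 0.0123 in WT input (257). The SD was above 0.1 in 29, 13, 19 and 8 of them. The widest were Mthfs and Gm2382 (262 bases, 0.0224 to 0.970 and 0.0267 to 0.975 in KO input), Oprm1 (521 bases, 0.0357 to 0.991 in KO TRAP) and Runx1t1 (170 bases, 0.0386 to 0.958 in WT TRAP). In each of these, libraries of the same group gave nearly opposite levels although each value had passed the limit on its width. Mthfs and Gm2382 had the same exon length and nearly the same SD (0.541 and 0.538), and whether they share reads was not tested.

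A list of 93 genes of RNA-binding and splicing proteins, not all such genes, held 48 of the events in 33 genes. This list and those below are selections, and genes named elsewhere, such as Oprm1 and Syt1, are in none of them. From the first list only 6 events could be tested in TRAP against input. None passed and 0 had an unadjusted p below 0.05 (limma). Snrpn, a protein of small nuclear ribonucleoproteins, had a 104-base exon at 0.014 to 0.171 in TRAP and 0.036 to 0.139 in input. Hnrnpc and Snrnp70, both splicing proteins, had long exons (1223 and 1360 bases) that were mostly left out, with means of 0.109 and 0.0243 in TRAP and 0.0597 and 0.04 in input. Between KO and WT 8 were tested in TRAP and 6 in input, and 1 had an unadjusted p below 0.05 in each (limma), where 6.02% and 3.29% of all events did.

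A list of 71 synapse and vesicle genes held 16 events in 14 genes, with 5 tested in TRAP against input. Of these, 0 passed the threshold and 2 were at an unadjusted p below 0.05 (limma), where 9.4% of all events were. Dlg4, the scaffold PSD-95, had a 110-base exon at 0.954 ± 0.028 (SD, n = 10) in TRAP and 0.977 ± 0.0122 (SD, n = 8) in input (adjusted p = 0.355). Snap47, a SNARE protein, had a 121-base exon at 0.0156 to 0.0441 in TRAP and 0.022 to 0.0495 in input (adjusted p = 0.441). Camk2b kept its 95-base exon (0.924 to 0.983 in TRAP) and Dnm1, the dynamin of synaptic vesicle uptake, left out its 83-base exon (0.028 to 0.086), with overlap in each. A list of 53 ion channel and receptor genes held 13 events in 10 genes. Cacnb1 alone could be tested, at 0.00543 to 0.107 in TRAP and 0.0127 to 0.0319 in input. A list of 49 cytoskeleton and motor genes held 17 events in 9 genes, with 7 tested in TRAP against input. Among them 0 were past the threshold or at an unadjusted p below 0.05 (limma). Tpm1, a tropomyosin, had 4 of those exons, at different levels: 0.956 to 0.989 and 0.943 to 0.985 for the kept 76-base and 134-base exons, 0.840 to 0.966 for the 118-base exon, and 0.0164 to 0.197 for another 76-base exon that was left out. Mapt, the tau gene, left out its 97-base exon in every sample (0.0149 to 0.0546).

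The genes that hold these exons changed in level between TRAP and input about as often as others. Of 1451 host genes tested with edgeR's quasi-likelihood test, 57 were higher and 25 lower in TRAP (5.65%), against 4.72% of all 14261 genes (2.41% higher and 2.31% lower). The median log2 fold change was 0.10 for hosts and 0.02 for all genes. Leaving out WT input 1 or WT input 5 lowered the 82 host genes to 40 in each case. Between KO and WT, 0 host genes passed in TRAP and 0 in input with edgeR (0% of all genes in both), against 2 and 0 with DESeq2. At an unadjusted p below 0.05 there were 69 host genes in TRAP (4.76%) and 29 in input (2%), against 5.34% and 2.88% of all genes (edgeR). Of 25 genes of nonsense-mediated decay, Smg1, the kinase that phosphorylates Upf1, was higher in TRAP (log2 fold change 1.19 ± 0.34, edgeR adjusted p = 0.0411; 144 against 62.4 CPM). The other 24 did not pass, and 0 passed between KO and WT in either kind of RNA. Smg1 lost the call in 10 of the 18 fits that left out 1 sample (adjusted p up to 0.165).

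Which exons could be measured differed between the kinds of RNA. A value in at least 3 TRAP libraries and no input library was found for 82 events. The levels of their genes are not independent of that choice and are not given. The 71-base exon of Drosha, the nuclease that starts microRNA processing, had a value in 7 TRAP libraries (0.934 to 0.969). Dtnb, a dystrobrevin, and Ldha, a lactate dehydrogenase, had values in 8 TRAP libraries (0.941 to 0.988 and 0.905 to 0.969), and Syt1, the calcium sensor of vesicle release, in 7 (0.022 to 0.111). A value in at least 3 input libraries and no TRAP library was found for 11 events. There were 10 TRAP and 8 input samples, so a TRAP count of 3 is the easier to reach.

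Between KO and WT, exons in CELF6-bound genes and in other genes had similar shares of small p-values. At an unadjusted p below 0.05 there were 9 of 144 (6.25%) in bound genes and 16 of 259 (6.18%) in others in TRAP, and 3 of 90 (3.33%) and 5 of 142 (3.52%) in input. Between TRAP and input the counts were 26 of 137 (19%) in bound genes and 18 of 237 (7.59%) in others, where over all events the shares were 11.4% and 8.08%. The CLIP list names genes and not exons, and the difference between bound and other genes was not tested.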

How the data were processed

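Splicing values came from the tables the authors deposited, 1 for TRAP and 1 for input, as PSI fractions made with MISO. Per the series' design text, a value stands only if its credible interval spans 0.20 or less, a limit that is met with fewer reads when PSI is near 0 or 1. The authors deposited a p-value and a false discovery rate per event, from ANOVA of KO and WT on the log2 odds, which are quoted where named. The deposited log2 scale was rebuilt from PSI here. The authors deposited read counts for each gene, made with featureCounts 1.4.6-p5 per the file headers, on the exons of a UCSC mm10 gene file with no strand option in the recorded command. Trimming with Trimmomatic and alignment with STAR come from the submitters' processing notes.

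Members and gene lists were chosen with earlier results of these data known. PSI was held between 0.01 and 0.99, and log2 odds were compared with limma 3.58.1 in R 4.3.3 over all splicing events measured in 3 or more libraries of both genotypes (KO against WT) or in 2 or more of all 4 groups (TRAP against input averaged over the genotypes, and the interaction). Adjustment was by Benjamini and Hochberg with a threshold of 0.05. Gene counts were compared with edgeR 4.0.16 (filterByExpr, TMM, sequencing run as covariate) and DESeq2 1.42.0 as an alternative. Replicates 1 to 3 were sequenced in run 1 and replicates 4 and 5 in run 2. The fits were tested on simulated data. Named were the 6 events with the smallest p in each direction for TRAP against input, 5 in each direction for each genotype comparison, 3 for the interaction and up to 4 for each list, and decay genes past the threshold; some exons that this rule names are not reported here. An event without a gene name was placed by the RefSeq gene span (GRCm38.p6) around its middle exon. A middle exon was compared with the exons in the count files' headers.

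Equal numbers in TRAP and input are the same brain by the series design. The correlation of PSI deviations was −0.0135 to 0.154 for the 9 pairs of equal number and −0.143 to 0.108 for other pairs. The brain therefore entered as a block in alternatives. WT TRAP 2 and WT TRAP 3 were both paired with WT input 2/3 (−0.0135 and −0.00702) and shared 1 block with it. These 2 TRAP libraries differed (chi-square per gene 43.5), so for them the block is not that of 1 brain. P-values measure the spread between these brains and their libraries.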

Additional observations from a re-analysis of the deposited data

Results flagged for a closer look

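In 6 of 66 groups of 4 or 5 values of the 27 exons named by p, a single library lay far from the others of its group by Dixon's test, which chance gives in about 1 in 20 groups. WT TRAP 2 was that library in Mtap1a (0.661, against 0.935 to 0.974 in the other WT TRAP libraries) and in Atp6v1f (0.185, against 0.0083 to 0.0387). KO TRAP 1 was that library in Ipo9, at 0.0683 against 0.00617 to 0.0159. In the other 3 the gap was small: Mtap1a at 0.988 in KO input 2 (others 0.995 to 0.997), Dhx57 at 0.988 in KO input 3 (others 0.975 to 0.978) and Stau2 at 0.973 in WT TRAP 4 (others 0.956 to 0.958).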

How the results depend on the processing

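No frame-shifting exon passed in KO against WT in input under any alternative run, and the fit with the brain or replicate block gave 0 calls in all 4 comparisons. In KO against WT in TRAP the count was 1 with PSI held between 0.05 and 0.95 (the event in the span of Meg3), with untransformed PSI (Atp5j) and with p adjusted over skipped exons alone (Pfdn5), and 0 to 1 with 1 sample left out. In TRAP against input it was 1 with wider bounds on PSI, from 0.001 up (Mbp), 3 between 0.05 and 0.95 (4833439L19Rik, Atp5d and the Meg3 event), 1 untransformed (4833439L19Rik), and 0 to 1 with 1 sample left out. The interaction gave 2 between 0.05 and 0.95 (Atp5d and the Meg3 event). The cause was not tested. Of 645 alternatives for the 30 named results, 637 kept direction and side, 7 passed the threshold and 1 reversed (Pfdn5, TRAP against input in KO alone, −0.3872); 7 more had all values tied at the bound and gave none. The median PSI over events seen in every library was 0.0448, 0.0454, 0.0403 and 0.0477, over fewer events. Host genes called in TRAP against input were 147 with DESeq2, 64 with the replicate block and 40 to 93 with 1 sample left out. In KO against WT they were 2 (DESeq2) and 4 (no filter on low counts) in TRAP and 1 (no filter) in input. Decay genes in TRAP against input were 2 with DESeq2, 2 without the filter, 2 with WT input 2 and 3 apart, and 0 to 2 with 1 sample left out. Replicate numbers of KO and WT are a shared number only: same-numbered deviations correlated by −0.0408 to 0.0967 in TRAP and −0.083 to 0.219 in input. The intervals given with each comparison bound what it could show, and the part of read depth in them was not tested.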
